A study of Arabidopsis thaliana with 6 samples.

Results

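The chloroplast genome of Arabidopsis thaliana encodes 11 different ndh genes, each for a subunit of the chloroplast NADH dehydrogenase-like (NDH) complex. Of these, 10 were named alone by an ATH1 array probe set and are described here: ndhA, ndhC, ndhD, ndhE, ndhF, ndhG, ndhH, ndhI, ndhJ and ndhK. They were chosen by name, as all plastid genes whose symbol begins with ndh. No cut on their signals was used, but earlier results of these data were known at the choice. The ndh genes described are 10 of 69 plastid genes named alone, on an array of 22810 probe sets. The 11th gene, ndhB, lies in the inverted repeat, and its probe set names both copies, so it stands outside the 10.

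Total RNA of whole young seedlings with fully opened cotyledons, hypocotyl and primary root, and no true leaves, was measured on 6 arrays, 2 per group. The control group was wild type Col-0 on plain medium, the second group was wild type Col-0 on medium with 5 µM norflurazon, and the third was the gun1,gun5 double mutant on medium with 5 µM norflurazon. After 3 days in the dark, all seedlings had 3 days of unbroken white light. They grew at 23 °C on agar with Murashige and Skoog salts and 1.5% (w/v) sucrose. The labels name neither the gun1 and gun5 alleles nor the background of the double mutant, and an untreated mutant was not analysed here, so genotype could not be separated from the response to the herbicide. Nothing in the labels tells if a group's samples were separate cultures, and p-values therefore measure only the spread between these samples, which may be technical. In whole seedlings, fewer green cells and less RNA per green cell cannot be told apart.

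The NDH complex sits in the thylakoid membrane and is related to complex I of mitochondria. It passes electrons from ferredoxin to plastoquinone and takes part in cyclic electron flow around photosystem I. The plastid-encoded subunits form the core: NdhA, NdhC, NdhD, NdhE, NdhF and NdhG lie in the membrane arm, whereas NdhH, NdhI, NdhJ and NdhK lie in the stromal arm that carries the iron-sulfur clusters. The remaining subunits are encoded in the nucleus. Norflurazon blocks carotenoid synthesis, and chloroplasts without carotenoids bleach in the light. In gun (genomes uncoupled) mutants, nuclear photosynthesis genes stay partly expressed when plastids are damaged.

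Signals were linear MAS5 values scaled by the authors to a common trimmed mean, and no unit of RNA mass stands behind them. Signals of different probe sets are not levels per length and were not compared with each other. On wild type norflurazon replicate 1, the 25S rRNA control probe set read 2511.1, against 8.2 to 115.6 on the other 5 arrays. The 3′ to 5′ ratio of the actin control lay between 4.65 and 4.82 on the control arrays and between 7.66 and 8.17 on the norflurazon arrays by one pair of probe sets, and between 1.65 and 3.63 with no such split by another pair. Of 5 listed green shoot markers, 2 were named, LHCB4.2 and PSAN, neither at 0, and their summed signal was 4320.4 to 4811.3 in the control, 475.3 to 697.3 in wild type on norflurazon and 1320.2 to 1820.9 in the mutant. Of 8 listed root markers, 2 were named, PYK10 and EXPA7, neither at 0. Their summed signal was 3401.9 to 3711.7, 2870.1 to 3506 and 3565.1 to 3608.3 in the same groups, and PYK10 made up nearly all of it. EXPA7 read 46.7 and 56.1 in the control, 48.9 and 18.1 in wild type on norflurazon and 51.4 and 49.5 in the mutant. Of the seed reserve and flower markers, 0 of 4 and 0 of 4 were named, so those 2 lists are not analysed here. What part the first actin ratio and the green shoot markers, both of which move with norflurazon, have in the results below was not tested.

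The ndh transcripts of wild type seedlings were lower on norflurazon than in the control, by 1.56-fold to 9.10-fold among those past the threshold. Of the 7 ndh genes bright enough to test, 6 fell (ndhA, ndhI, ndhE, ndhD, ndhC and ndhJ) and ndhK did not pass. A gene passed at an adjusted p of 0.05 or less in limma, fitted over 13648 probe sets on the log2(signal + 0.05) scale with Benjamini-Hochberg adjustment, and 9.85% of all tested probe sets fell by this rule. All 10 ndh genes, the dim ones included, were lower on both norflurazon arrays than on both control arrays. Among all 22746 non-control probe sets, 31.3% were lower in that way. The 59 other plastid genes named alone were all lower in that way too.

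Among the membrane arm genes, ndhA read 1414.9 and 1065.0 on the control arrays, 144.4 and 126.0 on the wild type norflurazon arrays and 103.2 and 94.7 on the mutant arrays. ndhA encodes the membrane subunit that adjoins the stromal arm, and its mean signal went from 1240 ± 247 to 135.2 ± 13.0 (SD, n = 2), or 10.9% of control. That was a log2 change of −3.19 (SE 0.20, 95% interval −3.65 to −2.72, limma adjusted p = 7.52e-05).

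ndhD encodes a large membrane subunit related to the proton-pumping subunits of complex I. It read 1776.5 and 1606.6 in the control, 496.4 and 597.3 in wild type on norflurazon and 351.7 and 452.8 in the mutant. The drop to 32.3% of control was a log2 change of −1.63 (SE 0.18, limma adjusted p = 0.00105). For ndhE, a small membrane subunit, the signals were 212.8 and 162.1, 58.2 and 30.9, and 31.9 and 21.6 in the same order of groups. The fall to 23.8% of control was a log2 change of −2.13 (SE 0.34, adjusted p = 0.00545), and wild type norflurazon replicate 2 read 0.531 times replicate 1.

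ndhC, another small membrane subunit, kept more of its signal, with 1337.7 and 1172.1 in the control, 668.6 and 760.8 in wild type on norflurazon and 505.0 and 618.9 in the mutant. Its mean stood at 57.0% of control, a log2 change of −0.81 (SE 0.17, limma adjusted p = 0.0150). Without control replicate 1 or control replicate 2, ndhC no longer passed, at adjusted p = 0.163 and 0.0892.

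Among the stromal arm genes, ndhI, which encodes an iron-sulfur subunit, read 3297.1 and 3110.9 in the control, 575.2 and 672.8 in wild type on norflurazon and 439.0 and 544.8 in the mutant. Its mean of 3204 ± 132 dropped to 624 ± 69.0 (SD, n = 2), which is a log2 change of −2.36 (SE 0.17, limma adjusted p = 0.000127). The 3 groups of ndhI did not overlap, and nor did those of ndhA, ndhC, ndhD, ndhJ and ndhK or of the dim ndhG and ndhH. The share of all probe sets with 3 separate groups was not counted. Among all non-control probe sets, 31.3% were lower on both wild type norflurazon arrays than on both control arrays. On both mutant arrays, 19.7% were lower than on both wild type norflurazon arrays.

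ndhJ encodes a stromal arm subunit and read 514.0 and 465.3 in the control, 288.7 and 341.9 in wild type on norflurazon and 148.1 and 164.5 in the mutant. It fell by 0.64 on the log2 scale (SE 0.18, limma adjusted p = 0.0417), to 64.4% of control, which is close to the threshold. The call was lost when either control array was left out (adjusted p = 0.299 without replicate 1 and 0.191 without replicate 2), when wild type norflurazon replicate 1 was left out (0.0830) and under some other settings. ndhK, whose product carries an iron-sulfur cluster next to the quinone site, read 306.5 and 224.8, 192.0 and 168.7, and 103.5 and 100.5. Its log2 change of −0.54 (SE 0.21, 95% interval −1.02 to −0.07) did not pass, with an adjusted p of 0.107. Without control replicate 1, 3 of the 7 genes passed, and without control replicate 2, 4 passed; without wild type norflurazon replicate 1, the array with the high 25S signal, 5 passed.

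ndhF, ndhG and ndhH were too dim to be tested, with geometric mean signals of 5.04, 24.1 and 9.17 against a filter of 27.6; ndhE, at 59.1, was the dimmest ndh gene inside it. ndhG, a membrane subunit, read 72.5 and 62.0 in the control, 19.6 and 20 in wild type on norflurazon and 11.5 and 9.7 in the mutant. ndhH, a stromal arm subunit next to the quinone site, read 61.0 and 36.9, 19.9 and 7.0, and 1.0 and 1.8. ndhF, the membrane subunit at the far end of the arm, read 13.4 and 16.8, 3.2 and 6.6, and 0.6 and 5.4. In a fit without the filter, in which 5.7% of all probe sets fell, ndhG changed by −1.76 (SE 0.30, limma adjusted p = 0.0148) and passed. ndhH changed by −2.002 (SE 0.65, adjusted p = 0.105) and ndhF by −1.70 (SE 1.00, adjusted p = 0.336), and neither passed. With 2 arrays against 2, an exact permutation test of a single gene cannot give a two-sided p below 0.333.

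**Figure D1:**
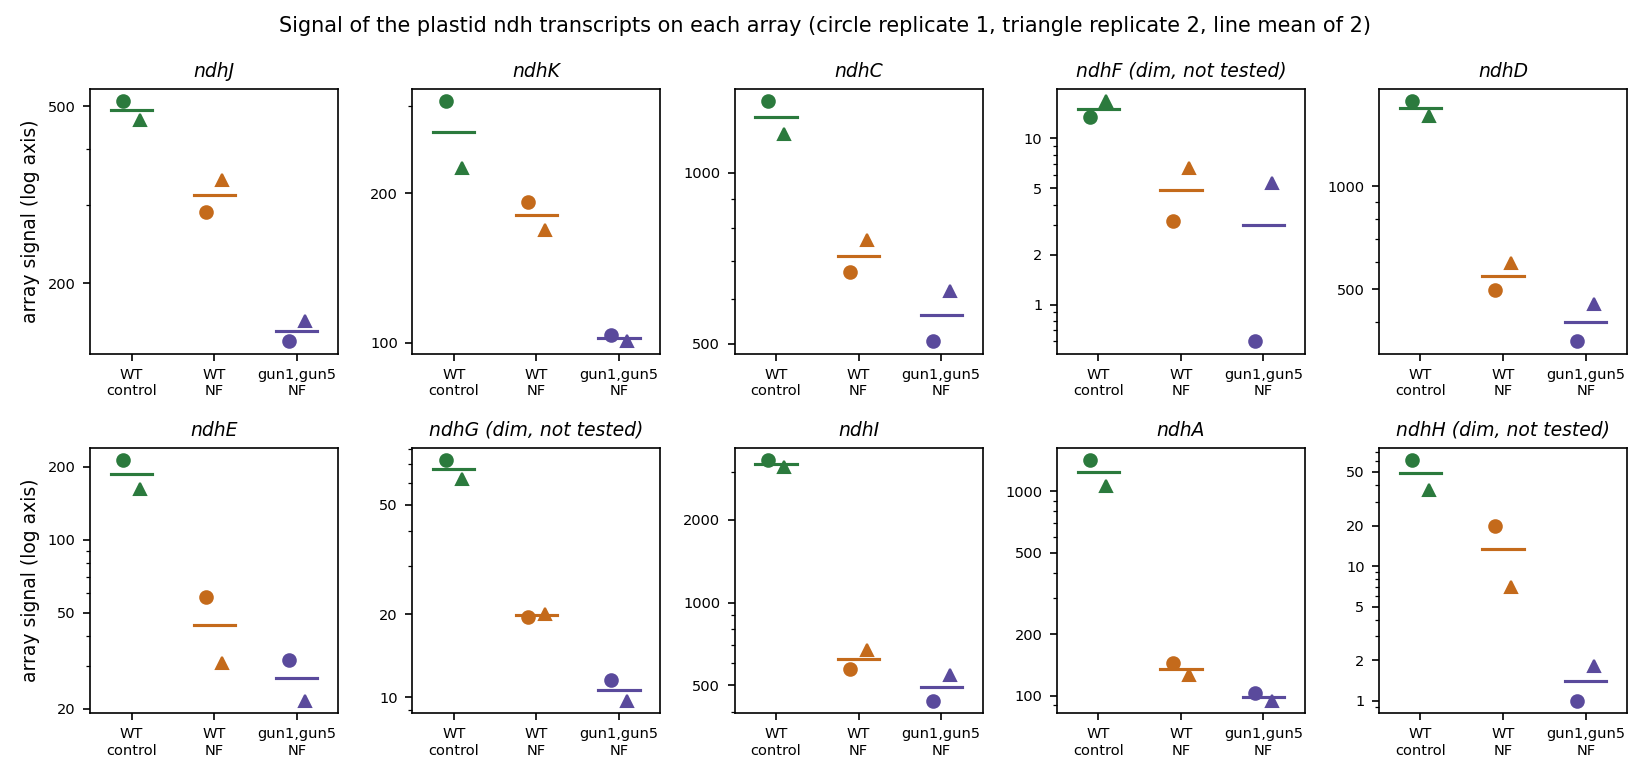
Signal of each of the 10 ndh genes on the 6 arrays (log axis, a separate scale per gene), for the wild type (WT) control, wild type on norflurazon (NF) and gun1,gun5 on norflurazon; circles are replicate 1, triangles replicate 2 and lines the mean of 2. Both control arrays lie above all norflurazon arrays for every gene, and the mutant arrays lie below both wild type norflurazon arrays for 8 of the 10, the exceptions being ndhE and ndhF.

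The 2 runs of neighbouring ndh genes had changes of different size. In the RefSeq TAIR10.1 gene table, ndhJ, ndhK and ndhC are direct neighbours, and ndhD, psaC, ndhE, ndhG, ndhI, ndhA and ndhH follow one another in the small single-copy region; each run is known to be cotranscribed. ndhF stands apart from both, between ycf1 and rpl32. ndhA had the most negative change on norflurazon of all 62 tested plastid genes, ndhI ranked 7th, ndhE 12th and ndhD 27th. ndhC, ndhJ and ndhK ranked 51st, 56th and 59th.

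The median log2 difference from the control mean for ndhJ, ndhK and ndhC was −0.76 and −0.64 in wild type on norflurazon, one value per array, and −1.34 and −1.38 in the mutant. For ndhD, ndhE, ndhI and ndhA it was −2.12 and −2.42 in wild type, and −2.70 and −2.83 in the mutant. On each norflurazon array the longer run was thus the lower one, with differences from the shorter run between −1.78 and −1.36. This grouping was drawn with the values in view and was not tested.

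Of the genes bordering the ndh genes, psaC, ccsA, rpl32 and rps15 were named alone and tested. psaC, which lies inside the longer run and encodes the iron-sulfur subunit of photosystem I, read 434.9 and 331.8 in the control and 89.8 and 41.8 in wild type on norflurazon, a log2 change of −2.63 (SE 0.35, limma adjusted p = 0.00229). ccsA, beside ndhD, encodes a protein of cytochrome c assembly and changed by −1.80 (adjusted p = 0.000993). rpl32, a ribosomal protein gene beside ndhF, changed by −1.23 (adjusted p = 0.00327). rps15, a ribosomal protein gene beside ndhH, did not pass (−0.79, adjusted p = 0.108), but did without wild type norflurazon replicate 1 (−1.17, adjusted p = 0.0318). The rpl32 call was lost without control replicate 1 (adjusted p = 0.0640).

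**Figure D2:**
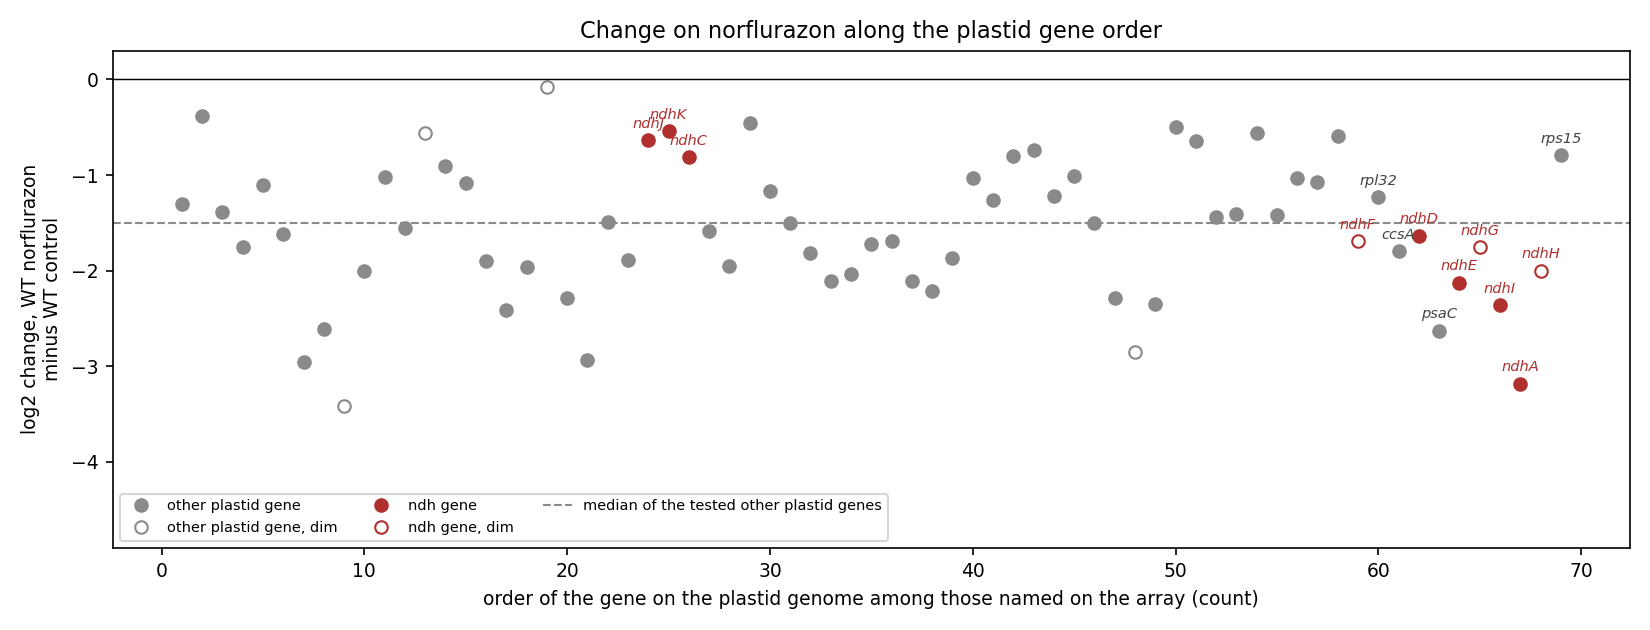
Log2 change of the 69 named plastid genes in wild type on norflurazon (vertical axis), in their order on the plastid genome (horizontal axis, a count of genes). Red points are ndh genes, open points are genes too dim to test and the dashed line is the median of the 55 other tested plastid genes, −1.50; ndhJ, ndhK and ndhC lie above it and ndhA is the lowest of the tested genes.

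The median change of the ndh transcripts lay near that of the rest of the plastid genome. Their median log2 change on norflurazon was −1.63 (range −3.19 to −0.54), against −1.50 for the 55 other tested plastid genes (range −2.96 to −0.38), of which 44 fell, and 0.06 for all tested probe sets. The median was −2.28 for 5 photosystem I genes, of which 5 fell. It was −1.83 for 14 photosystem II genes, of which 13 fell, and −1.96 for 5 ATP synthase genes, of which 5 fell. For 14 ribosomal protein genes it was −1.15, and 10 of them fell. The 6 cytochrome b6f genes had a median of −0.96, and 3 of them fell.

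Each array was also centred on its median level of the 55 other plastid transcripts, which raises all other changes: the median of all tested probe sets moved by 1.79, and 93.1% of all probe sets were higher and 0.872% lower by the same threshold. On that scale ndhK was higher by 1.24 (SE 0.38, limma adjusted p = 0.00124), ndhJ by 1.15 (SE 0.36, adjusted p = 0.00196) and ndhC by 0.98 (SE 0.34, adjusted p = 0.00455). ndhA was lower by 1.40 log2 units (value −1.40, SE 0.37, adjusted p = 0.000202). ndhD (0.15, adjusted p = 0.659), ndhE (−0.34, adjusted p = 0.410) and ndhI (−0.58, adjusted p = 0.0873) did not pass in either direction. On this scale 3 ndh genes were thus higher, 1 was lower and 3 did not pass. The p-values of this scale rest on intervals with the width of a normal distribution (0.50 to 1.98 for ndhK). With the degrees of freedom of the main fit they would be larger. The shift of 1.79 follows the median level of the 55 genes and is larger in size than their median change, −1.50. ndhD, at −1.63 before centring, thus turned positive, and the split is not one of losses relative to that median change. Other plastid genes had similar uncentred changes: matK −0.38 and rbcL −0.46 beside ndhK at −0.54, and atpF −2.96 beside ndhA at −3.19. How many of the 55 pass on this scale was not counted.

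The second comparison set the gun1,gun5 double mutant against wild type with both on norflurazon. ndhJ was the 1 of 7 tested ndh genes that was lower in the mutant past the threshold, by 2.01-fold. Mean signals were 315.3 ± 37.6 for wild type and 156.3 ± 11.6 for the double mutant (SD, n = 2), giving a log2 change of −1.01 (SE 0.18, 95% interval −1.42 to −0.60, limma adjusted p = 0.0274). Across the array, 1.11% of tested probe sets were lower. The other 6 had log2 differences between −0.82 and −0.35, and 3 of the 7 had an unadjusted p under 0.05.

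ndhK went from 180.35 ± 16.5 to 102 ± 2.12 (SD, n = 2), a log2 difference of −0.82 (SE 0.21, 95% interval −1.30 to −0.34) that did not pass after adjustment, with a limma adjusted p of 0.0923. ndhE (−0.69, adjusted p = 0.383), ndhD (−0.45, adjusted p = 0.279), ndhA (−0.45, adjusted p = 0.322), ndhC (−0.35, adjusted p = 0.366) and ndhI (−0.35, adjusted p = 0.359) did not pass. The ndhE difference rested on single arrays: it was −0.23 without wild type norflurazon replicate 1 and −1.15 without replicate 2 (adjusted p = 0.729 and 0.0762). For ndhA the 95% interval ran from −0.91 to 0.01 and for ndhI from −0.73 to 0.03. The intervals thus hold both 0 and a lower level in the mutant.

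In 8 of the 10 ndh genes both mutant arrays were below both wild type norflurazon arrays; ndhE and ndhF overlapped. Among all non-control probe sets 19.7% were lower in that way. Without the filter, 0.378% of probe sets were lower past the threshold. ndhH differed by −3.09 (SE 0.65, limma adjusted p = 0.0928), ndhG by −0.90 (adjusted p = 0.272) and ndhF by −1.30 (adjusted p = 0.703), and none passed. Of the bordering genes, psaC (−0.62, adjusted p = 0.454), ccsA (−0.62, adjusted p = 0.172), rpl32 (−0.16) and rps15 (−0.81, adjusted p = 0.235) did not pass. With wild type norflurazon replicate 2 left out, psaC passed at −1.17 (adjusted p = 0.0398), and over all fits with arrays left out it ranged from −1.17 to −0.07 and rps15 from −1.39 to −0.24.

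The ndh median of −0.45 stood beside −0.46 for the 55 other tested plastid genes, of which 1 was lower past the threshold, and −0.04 for all tested probe sets. ndhJ ranked 3rd and ndhK 11th among the 62 tested plastid genes. Centred on the other plastid transcripts, 0 of 7 ndh genes passed in limma and 0 had an unadjusted p under 0.05, while 0.359% of all probe sets were lower; ndhJ was at −0.62 with an adjusted p of 0.441. The ndhJ call was also lost with only the 2 groups compared in the fit (adjusted p = 0.123), without either control array (0.114 and 0.113) and without either mutant array (0.137 without replicate 1 and 0.114 without replicate 2).

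**Figure D3:**
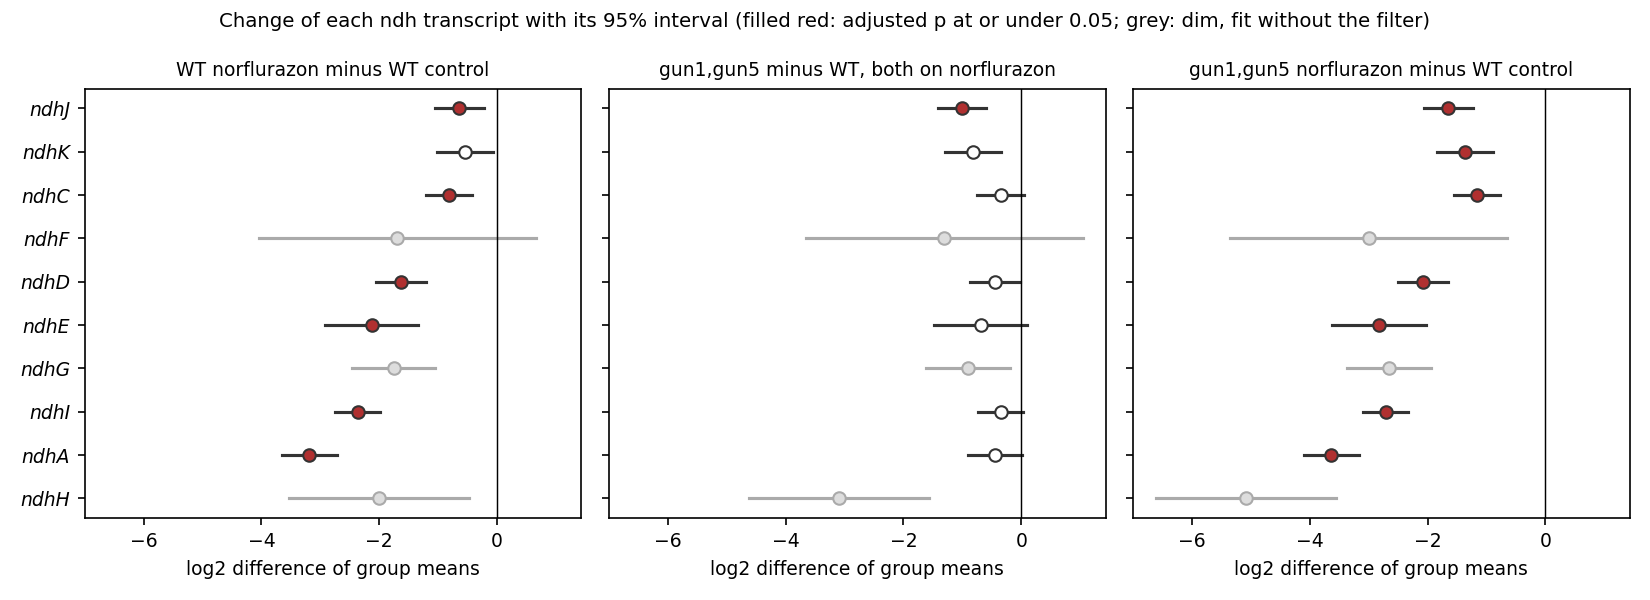
Log2 difference of group means for each ndh gene with its 95% interval, in the 3 comparisons; filled red points passed an adjusted p of 0.05 in limma, open points did not, and grey points are the 3 dim genes from the fit without a filter. In wild type on norflurazon 6 tested genes passed, in the mutant against wild type only ndhJ passed and in the treated mutant against the control all 7 tested genes passed.

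The third comparison, the treated mutant against the untreated wild type, changes genotype and herbicide together and shares its arrays with the other 2. All 7 tested ndh genes fell, while 10.3% of all tested probe sets did. ndhA fell furthest, to 7.98% of control (−3.63, SE 0.20, limma adjusted p = 0.000114), followed by ndhE (−2.82, adjusted p = 0.00226), ndhI (−2.71, adjusted p = 0.000190) and ndhD (−2.08, adjusted p = 0.000857). ndhJ (−1.65, adjusted p = 0.00149), ndhK (−1.36, adjusted p = 0.00518) and ndhC (−1.16, adjusted p = 0.00437) fell least. Without control replicate 1, ndhK (adjusted p = 0.0756) and ndhC (adjusted p = 0.0725) no longer passed.

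Of the dim genes, ndhH (−5.09, limma adjusted p = 0.00693) and ndhG (−2.66, adjusted p = 0.00516) passed without the filter, where 5.69% of probe sets fell, and ndhF did not (−2.9997, adjusted p = 0.114). ndhH had mean signals of 48.95 ± 17.0 in the control and 1.40 ± 0.566 in the mutant (SD, n = 2), and its log2 change depends on the pseudocount. The mutant arrays were below the control arrays for 10 of 10 ndh genes, against 33.3% of all non-control probe sets. The same held for all 59 other plastid genes named alone. The ndh median was −2.08, beside −1.94 for the 55 other plastid genes, of which 54 fell, and 0.01 for all tested probe sets. Centred on the other plastid transcripts, where 0.33% of probe sets were lower and 96.6% higher, ndhA was lower (−1.45, adjusted p = 9.44e-05), and ndhC (1.02, adjusted p = 0.00284) and ndhK (0.82, adjusted p = 0.0318) were higher. ndhJ, at 0.53 with an adjusted p of 0.146, no longer passed on that scale. The p-values on that scale again rest on intervals with the width of a normal distribution (0.08 to 1.56 for ndhK). With the degrees of freedom of the main fit they would be larger.

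The nucleus-encoded subunits of the same complex fell with norflurazon in wild type, and 3 of the 4 measured were higher in the mutant than in wild type on norflurazon. Of 20 listed loci, 4 were named and tested: NdhL, NdhN, NdhS and AT2G04039, a listed locus without a symbol in the tables used here. In wild type on norflurazon 4 of 4 fell, with a median of −2.41, where 9.85% of all tested probe sets fell. In the mutant against wild type 3 of 4 were higher, with a median of 1.05, where 1.83% of all tested probe sets were higher.

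NdhL, a membrane protein that anchors the stromal arm, read 780.5 and 866.4 in the control, 78.7 and 70.7 in wild type on norflurazon and 174.2 and 130.1 in the mutant. It fell by 3.46 on the log2 scale (SE 0.20, limma adjusted p = 5.63e-05) and was 1.01 higher in the mutant (SE 0.20, 95% interval 0.54 to 1.48, adjusted p = 0.0418). NdhN, a stromal subunit, read 596.0 and 538.5, 63.5 and 93.3, and 181.0 and 173.2. It changed by −2.88 (adjusted p = 0.000196) and then by 1.20 between mutant and wild type (adjusted p = 0.0307).

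NdhS, which forms part of the ferredoxin-binding site, read 506.9 and 478.6 in the control, 118.5 and 138.5 in wild type on norflurazon and 226.3 and 325.0 in the mutant. It fell by 1.94 on the log2 scale (limma adjusted p = 0.000993) and was 1.08 higher in the mutant (adjusted p = 0.0416). AT2G04039 fell by 1.91 on the log2 scale (adjusted p = 0.00123), and its difference in the mutant, 0.71, did not pass (adjusted p = 0.166). Against the control, the treated mutant was lower by this test in all 4: NdhL at −2.45 (adjusted p = 0.000616), NdhN at −1.68 (0.00298), NdhS at −0.86 (0.0297) and AT2G04039 at −1.20 (0.0105). Among all tested probe sets, 10.3% were lower in this comparison. NdhS no longer passed without control replicate 1 (0.204), control replicate 2 (0.165) or mutant replicate 1 (0.142). AT2G04039 no longer passed without control replicate 1 (0.125), control replicate 2 (0.0634) or mutant replicate 2 (0.0734), nor NdhN without control replicate 1 (0.0503).

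The 3 calls of a higher level in the mutant lie near the threshold: with only the 2 groups in the fit, NdhL, NdhN and NdhS had adjusted p-values of 0.151, 0.120 and 0.150. Without control replicate 1 or 2 they were 0.146 and 0.146 for NdhL, 0.113 and 0.112 for NdhN, and 0.142 and 0.142 for NdhS. Without mutant replicate 1 or 2, NdhL (0.202 and 0.0853) and NdhN (0.144 and 0.139) did not pass, nor did NdhS without mutant replicate 2 (0.204). NdhL also missed the threshold without wild type norflurazon replicate 2 (0.0589), and NdhS without replicate 1 (0.0768). On the 2 mutant arrays the median of the 4 nuclear genes was −1.38 and −1.56 from the control mean, against −2.61 and −2.32 on the wild type norflurazon arrays. The plastid ndh genes were at −2.26 and −1.90 on the mutant arrays and −1.67 and −1.50 on the wild type arrays. The summed green shoot markers were also higher in the mutant than in wild type on norflurazon. Whether the plastid and nuclear genes differ in their mutant effect was not tested.

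**Figure D4:**
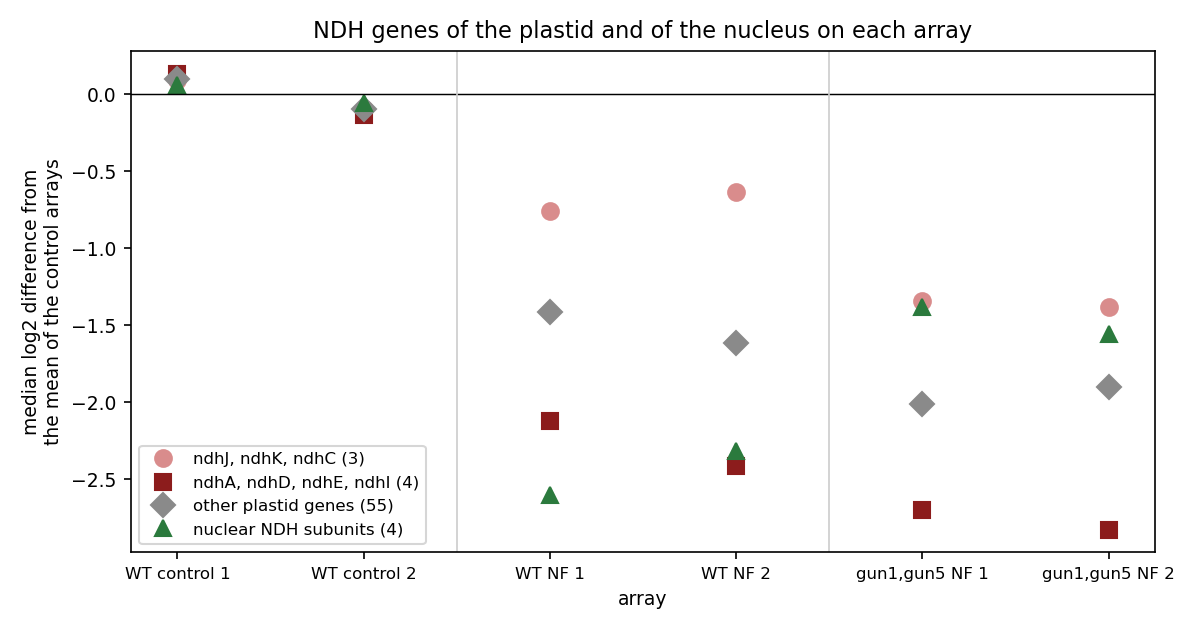
Median log2 difference from the mean of the 2 control arrays, on each array (WT is wild type and NF is norflurazon), for ndhJ, ndhK and ndhC, for ndhA, ndhD, ndhE and ndhI, for the 55 other tested plastid genes and for the 4 nuclear NDH subunit genes. Both ndh groups are lower on the mutant arrays than on the wild type norflurazon arrays, and the nuclear genes are higher there.

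Genes that act on the complex or on ndh RNA were sparsely named. Of 7 listed assembly factors, 2 were tested. Cpn60beta4, a chaperonin subunit needed for folding of NdhH, fell on norflurazon (−1.25, limma adjusted p = 0.00532) and was higher in the mutant than in wild type (1.13, adjusted p = 0.0282), at −0.12 from the control. The fall was lost without control replicate 1 or 2 (adjusted p = 0.0509 and 0.0714). The call of a higher level in the mutant was lost with 2 groups in the fit (0.108). It was also lost without either control array and without either mutant array. AT5G52780 fell on norflurazon (−2.40, adjusted p = 0.000292) and in the treated mutant (−2.06, adjusted p = 0.00106), and its difference between mutant and wild type of 0.34 did not pass (adjusted p = 0.480).

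Of 14 listed factors for ndh RNA processing and editing, 6 were named and 5 tested; limma called 0 in each of the 3 comparisons, with 1 at an unadjusted p under 0.05 in each. The smallest p on norflurazon was that of AT4G37380 (0.70, adjusted p = 0.121), and in the mutant against wild type that of CRR21, an editing factor for ndhD RNA (0.77, adjusted p = 0.143). Of 7 listed genes for other cyclic and chlororespiratory electron flow, 2 were tested and limma called 0 in each comparison, with 1, 0 and 1 at an unadjusted p under 0.05. PGRL1B, of the antimycin-sensitive cyclic route, was at −0.74 on norflurazon (adjusted p = 0.0515), just short of the threshold. It passed in 8 of 17 alternatives, among them quantile normalization (adjusted p = 0.0383), the fit with 2 groups (0.0498) and the fit without wild type norflurazon replicate 2 (0.0297). NDC1, another plastid NAD(P)H dehydrogenase, was at 0.36 in the mutant against wild type (adjusted p = 0.510). Of 18 nuclear genes for plastid transcription, 1 was named and 0 were bright enough to test.

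The tested gene whose pattern over the 6 arrays lay closest to the mean of the 7 tested ndh genes was psbL, a small photosystem II subunit of the plastid genome, with a root mean square difference of 0.0741 log2 units. It read 452.8 and 434.6 in the control, 142.4 and 133.5 in wild type on norflurazon and 94.4 and 102.3 in the mutant. The next were the nuclear genes AT1G62510 (0.126), AT1G62770 (0.145), ChiC, a class V chitinase (0.146), and AT5G45310 (0.165), and the fifth nearest nuclear gene was ORA47, a transcription factor gene (0.182). Of the 20 nearest of 7278 candidates, 9 were plastid genes. The ndh genes themselves lay between 0.146 (ndhD) and 0.714 (ndhA) from their own mean. The outside genes named here are the closest of 7278 candidates, picked by this same distance. Their distances therefore cannot be weighed against those of the members.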

How the data were processed

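Each sample was hybridised to 1 ATH1 array. The deposited intensity values are linear signals made by the authors in MAS5, as named by the submitters' processing notes; version and genome build are not given in the sources used here. The mean of each array between the 2nd and 98th percentile lay between 99.59 and 99.85, so the authors' scaling was kept. No detection calls were used; the number of arrays limits the precision, and 98 values were 0.

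The scale was log2(signal + 0.05), with 0.5 times the lowest signal above 0 as pseudocount. The 64 control probe sets were left out, and the 13648 of the rest at or above the 40th percentile of mean log2 signal (27.6) were tested. A limma model (version 3.58.1, R 4.3.3) gave each group 1 mean over all 6 arrays (lmFit, eBayes with intensity trend; 3 residual and 4.89 prior degrees of freedom), with two-sided p-values adjusted by Benjamini-Hochberg at 0.05; the procedure was tested on simulated data. Log2 changes and adjusted p-values of single genes come from this fit, except where the text names another: without the filter (22746 probe sets, for the dim genes), centred on the other plastid transcripts, with 2 groups, or without an array. Differences are first group minus second. The SD of the log2 differences between the 2 arrays of a group was 0.271 in the control, 0.589 in wild type on norflurazon and 0.4515 in the mutant. One shared spread served all comparisons, so p-values of mutant against wild type also draw on the control arrays.

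Names came from the platform annotation, updated through the RefSeq table of TAIR10.1: 13513 named 1 gene, 503 several and 8794 are unnamed here; 13436 matched a locus. GUN1 and GUN5 were not among them and are not analysed here. No coordinates or sequences are printed. The 87 loci of 9 hand-written lists, the members and the naming rule were chosen with earlier results of these data known. The rule names every ndh gene and nuclear NDH subunit, per other list the 2 largest changes past the threshold or else the smallest p, the bordering plastid genes, and the 5 genes nearest in pattern. Alternatives were other pseudocounts, filters and scalings, no trend, 2-group fits, a replicate block and leaving out arrays.

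No 2 arrays shared more than 273 equal signals. Deviations from the group means of same-numbered arrays correlated at 0.0713 (control, wild type on norflurazon), 0.0799 (control, mutant) and 0.451 (wild type on norflurazon, mutant). Between those last 2 groups, log2 differences had an SD of 0.5361 and 0.5344 for like numbers, against 0.6516 and 0.6231 for unlike numbers. The labels tie the numbers to no batch, so arrays were not paired. What same-numbered arrays share was not tested, and counts with a replicate block are given below.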

Additional observations from a re-analysis of the deposited data

How the results depend on the processing

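Precision is limited by 2 arrays per group. Counts of ndh genes that were lower past the threshold were 6, 1 and 7 in the 3 comparisons (norflurazon against control, mutant against wild type, treated mutant against control). With the replicate number as a replicate block they were again 6, 1 and 7. Leaving out arrays gave 3 to 7, 0 to 4 and 5 to 7. The upper ends of the first 2 of these ranges came only from fits without both norflurazon arrays of one number. Such fits leave 1 array in each norflurazon group, so their residual spread comes from the 2 control arrays alone. More of all probe sets passed in them too, so these upper ends do not show a stronger ndh result. The mutant count was 0 with only the 2 groups compared. Centred on the other plastid transcripts the counts were 1, 0 and 1, the all-gene median moved by 1.79, 0.394 and 2.18, and signs turned. In the first comparison the ndh median became 0.15, ndhJ 1.15, ndhK 1.24, ndhC 0.98 and ndhD 0.15. In the second ndhC became 0.043 and ndhI 0.047. In the third the median became 0.10, ndhJ 0.53, ndhK 0.82, ndhC 1.02 and ndhD 0.10. This scaling was fitted over all tested probe sets, and single-gene values are given for the ndh members only; the turn follows from its construction, since the other plastid transcripts had fallen. ndhJ on norflurazon was also lost under median scaling (adjusted p = 0.0536), without the trend (0.0583), with 2 groups (0.0565) and without mutant replicate 1 (0.0595) or 2 (0.0605), and ndhE without control replicate 1 (0.0684). ndhK on norflurazon was at −0.64 without both norflurazon arrays numbered 1, a fit with 1 array in each norflurazon group. A filter at the 60th percentile dropped ndhE and moved the medians to −1.22 and −1.86. PGRL1B in the mutant against wild type ranged from −0.041 to 0.412 when single arrays were left out. All-probe-set counts were 2581, 402 and 2571 with all 6 arrays. They were 12826 and 13232 (norflurazon and treated mutant against control) after plastid centring, 109 and 3968 (mutant against wild type, and treated mutant against control) with 2 groups and 235 (mutant against wild type) without the filter. NdhL, NdhN, NdhS and Cpn60beta4 also missed the threshold in the mutant without the filter (adjusted p = 0.0620, 0.0527, 0.0669 and 0.0516).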

Other observations

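The probe set that names both inverted-repeat copies of ndhB, which encodes a large membrane subunit, read 59.2 and 54.7 in the control, 38.9 and 49.1 in wild type on norflurazon and 23.1 and 36.2 in the mutant on norflurazon. The control arrays lay above all norflurazon arrays. The log2 change on norflurazon was −0.38 (SE 0.28, limma adjusted p = 0.380), smaller than that of any tested ndh gene named alone, and did not pass. In the mutant against wild type it was −0.59 (adjusted p = 0.354), and in the treated mutant against the control −0.98 (adjusted p = 0.0466).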
